A study of Mus musculus with 18 samples.

Results

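Cortical neurons lacking Fmr1 and treated with JQ1 were compared with wild-type (WT) cortical neurons that had received vehicle alone. The comparison asks which transcripts JQ1 brought to the level of untreated WT neurons in knockout (KO) neurons, and which it took further away. It was chosen by column of the deposited count table, as the 3 libraries of KO in JQ1 against the 3 libraries of WT in DMSO, which are 6 of the 12 libraries in that table and of the 18 samples in the labels. All 37310 genes other than the spike-in sequences were taken, and 15433 had enough reads to be tested. The neurons came from the cortex of WT mice or of mice carrying the Fmr1 knockout, had spent 7 days in culture, and were exposed for 24 h to DMSO, the vehicle, or to JQ1. The vehicle-treated KO libraries (3) and the JQ1-treated WT libraries (3) served to split the distance between the groups into the genotype difference before JQ1 and the step that JQ1 made. The labels call the libraries of a group replicates without naming the cultures or animals behind them. A p-value here therefore speaks of the scatter among these libraries, and whether that scatter is technical was not tested. Set against read sampling alone, the scatter between libraries of a group ran from 4.67 to 37.8 (chi-square per degree of freedom).

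Fmr1 encodes FMRP, an RNA-binding protein that associates with many neuronal transcripts and is best known for holding back their translation at synapses. Its loss causes fragile X syndrome in people. JQ1 occupies the acetyl-lysine pocket of the BET bromodomain proteins, which bind acetylated histones and help to bring the elongation kinase P-TEFb to promoters and enhancers. HEXIM1 holds P-TEFb in an inactive complex, and its transcript is widely used as a readout of BET inhibition.

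The promoters of 4 genes are shown because histone genes of the clusters led the higher genes and Hexim1 is the known readout of the drug. Each line gives the 250 bases before the annotated start, 5′ to 3′ on the strand of the gene, from RefSeq on build GRCm38.p6, and the capitals mark TATAA or CCAAT on either strand. The window of Hist1h4i (H4c9 in RefSeq), which encodes a histone H4, lies at chr13:22041363-22041612 on the minus strand. That of Hist2h2bb (H2bc18), a histone H2B gene, lies at chr3:96269450-96269699 on the plus strand. The window of Hist1h1c (H1f2), a linker histone H1 gene, lies at chr13:23738557-23738806 on the plus strand, and that of Hexim1 lies at chr11:103116075-103116324 on the plus strand.
Hist1h4i: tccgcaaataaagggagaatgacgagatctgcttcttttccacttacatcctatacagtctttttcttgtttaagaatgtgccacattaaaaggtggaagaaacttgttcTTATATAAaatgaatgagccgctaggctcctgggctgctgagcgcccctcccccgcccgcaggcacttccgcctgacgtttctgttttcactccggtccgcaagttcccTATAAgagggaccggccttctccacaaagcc
Hist2h2bb: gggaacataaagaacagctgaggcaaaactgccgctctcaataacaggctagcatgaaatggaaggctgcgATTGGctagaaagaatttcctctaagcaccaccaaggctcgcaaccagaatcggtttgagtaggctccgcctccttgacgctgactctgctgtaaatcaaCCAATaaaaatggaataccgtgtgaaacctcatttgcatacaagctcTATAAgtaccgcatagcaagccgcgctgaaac
Hist1h1c: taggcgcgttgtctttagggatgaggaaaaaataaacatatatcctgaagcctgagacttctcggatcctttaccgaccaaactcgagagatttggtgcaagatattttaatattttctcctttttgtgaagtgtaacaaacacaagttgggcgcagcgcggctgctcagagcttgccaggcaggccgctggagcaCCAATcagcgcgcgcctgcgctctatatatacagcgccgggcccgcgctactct
Hexim1: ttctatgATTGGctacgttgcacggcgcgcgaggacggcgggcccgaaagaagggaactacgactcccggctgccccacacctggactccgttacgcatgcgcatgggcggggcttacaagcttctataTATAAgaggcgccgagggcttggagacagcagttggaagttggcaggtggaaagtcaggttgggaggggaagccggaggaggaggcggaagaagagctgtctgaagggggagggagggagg
The nearest TATAA stood 31 bases before the start of Hist1h4i, which held 3, and 32 bases before that of Hist2h2bb. Hist2h2bb also held CCAAT at 179 and 79 bases, and Hist1h1c held CCAAT at 54 bases. In Hexim1 the TATAA stood at 121 bases and the CCAAT at 243 bases. Both motifs, with CACGTG and TGACGTCA, were searched on both strands of all windows. The 12 leading genes each way are the largest called differences at a mean of at least 3 CPM in 1 group, without library overlap. Among the 12 leading higher genes, 9 matched a RefSeq window. Of these, 6 (66.7%) held CCAAT and 3 (33.3%) held TATAA, with CACGTG in 0 and TGACGTCA in 1. Over all windows of that length, counted by window, the shares of CCAAT and TATAA were 33.8% and 22.8%. Among tested genes they were 40.2% and 15%. There, as for the leading genes, a gene counted when any of its windows held the motif. Of the 12 leading lower genes, 9 matched, with 3 (33.3%) holding CCAAT and 5 (55.6%) holding TATAA. A match describes the letters of a window, and no binding was measured.

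Gene counts per library ran from 33118140 to 36859618 in vehicle WT neurons and from 34625688 to 78331837 in JQ1-treated KO neurons. Values are CPM, the counts of a gene scaled by a library size that was corrected with the TMM method, and differences are log2 ratios. Neuronal transcripts were abundant in every library, with the neuronal tubulin Tubb3 between 2093 and 2976 CPM. The microglial markers Tmem119 and P2ry12 stood at 0 in 6 and 5 of the 12 libraries and the endothelial marker Cldn5 at 0 in 4. P2ry12 was at least 0.0619 CPM in every vehicle library, so its zeros all fell in JQ1 libraries. Astrocyte transcripts were present in every library, with Aldh1l1 between 39.7 and 83 CPM. Both KO libraries numbered 3 stood apart, with Xist at 4.29 CPM in DMSO and 4.34 CPM in JQ1 where the other 10 libraries had 231 to 441 CPM. Ddx3y was higher in the same libraries, at 54.5 CPM in DMSO and 76.2 CPM in JQ1 against 28.1 to 46.1 CPM. Whether the cultures differed in sex makeup, and its part in the genotype differences, was not tested. Scaling on the spike-in sequences, whose added amount the labels do not give, moved the median gene of the comparison by -0.745 (log2). It moved the median gene of vehicle KO over vehicle WT by -0.809 and that of the step in KO by 0.0634. The spike-in share of counts ran from 0.118% to 0.173% in vehicle WT libraries and from 0.168% to 0.348% in vehicle KO libraries. Directions below are therefore relative to the median gene, and the counts under spike-in scaling stand beside each list.

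JQ1-treated KO neurons differed from vehicle WT neurons in most of the transcripts they express, and most of the large differences lay below vehicle WT. By edgeR's quasi-likelihood test 9007 of 15433 genes (58.4%) passed an adjusted p of 0.05, with 4232 higher (27.4%) and 4775 lower (30.9%). The libraries of both groups did not overlap for 9696 genes (62.8%), of which 4618 lay higher (29.9%) and 5078 lower (32.9%). Past 2-fold there were 160 higher (1.04%) and 1760 lower genes (11.4%), and past 4-fold there were 27 and 507. The genes past 2-fold were mostly low in vehicle WT neurons, with a median of 0.582 CPM for the higher and 1.19 CPM for the lower against 19 CPM over all tested genes. Among the 160 higher genes 23 carried histone names, and among the 27 past 4-fold 16 did, against 29 of all 15433 tested genes. These 27 had a vehicle WT median of 0.11 CPM. Genes that low in vehicle could enter the test through JQ1 libraries alone, which bears on all of these histone counts. Under spike-in scaling 41 genes were called higher and 8610 lower.

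Before JQ1 the genotypes lay much closer together. Vehicle KO against vehicle WT neurons gave 2311 called genes (15%), with 1113 higher (7.21%) and 1198 lower (7.76%), and 61 past 2-fold. The step from DMSO to JQ1 within KO gave 8817 (57.1%), with 4279 that rose (27.7%) and 4538 that fell (29.4%). JQ1 in WT gave 8507 called genes (55.1%), and JQ1-treated KO against JQ1-treated WT neurons gave 1385 (8.97%). The median absolute log2 difference over all genes was 0.28 from vehicle WT to JQ1-treated KO, 0.13 between the genotypes in DMSO, 0.26 for the step in KO and 0.26 for that in WT. These comparisons share libraries, so their values are set side by side only. The difference between the steps in KO and in WT was called for 0 genes by edgeR's quasi-likelihood test (0%), with 355 at an unadjusted p under 0.05.

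Fmr1 itself stayed far below the WT level. It measured 124, 119 and 119 CPM in vehicle WT neurons, 21.5, 22.2 and 29.4 CPM in vehicle KO neurons and 26, 27.6 and 34.6 CPM in JQ1-treated KO neurons. The KO libraries of either treatment lay below every WT library. Its log2 difference from vehicle WT with JQ1 was -2.04 (SE 0.11, adjusted p = 6.92e-09 by edgeR's quasi-likelihood test), and its step in KO, at 0.27, did not pass (adjusted p = 0.0572), although it was called in 3 of 10 fits that left out libraries.

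The leading genes above vehicle WT were headed by replication-type histone genes and included Hexim1. All reached a mean of 3 CPM in at least 1 of the groups, and genes of lower level were not considered. Hist1h4i measured 0.615, 0.711 and 0.660 CPM in vehicle WT neurons, 0.909, 1.22 and 0.957 CPM in vehicle KO neurons and 9.24, 9.87 and 9.48 CPM in JQ1-treated KO neurons. The groups did not overlap, and the log2 difference was 3.84 (SE 0.15, adjusted p = 3.66e-10 by edgeR's quasi-likelihood test). Hist2h2bb measured 0.469, 0.658 and 0.495 CPM in vehicle WT neurons against 6.54, 6.67 and 6.4 CPM, a log2 difference of 3.59. Hist1h1c, whose printed window holds tatatata but no TATAA, measured 9.38, 9.19 and 8.91 CPM against 45.4, 49.3 and 52.8 CPM. That is a log2 difference of 2.42 (SE 0.08), of which the genotype difference in DMSO made 0.26 and the step in KO 2.16. Hist1h4h and Hist1h2bc stood at 3.11 and 2.17. Hexim1 measured 28.8, 29.2 and 29.9 CPM in vehicle WT neurons and 94.7, 91.6 and 92.9 CPM in JQ1-treated KO neurons. Its libraries within each group lay close together, the log2 difference was 1.67 (SE 0.05, adjusted p = 1.07e-10), and the genotype difference in DMSO was 0.03.

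The other leading higher genes had mixed roles. Akap13, an anchoring protein of kinase A, measured 13.3, 12.7 and 14 CPM in vehicle WT neurons and 67.7, 58 and 57 CPM in JQ1-treated KO neurons (log2 2.19). Arid5a, which binds RNA and DNA, stood at a log2 difference of 2.05, Chchd7, a small mitochondrial protein, at 1.83, Trim17, a ubiquitin ligase, at 1.68 and Fam40b at 1.66. Hapln1, a link protein of the perineuronal matrix, was the 1 gene of the 12 whose distance came mainly from genotype. It measured 8.23, 7.16 and 9.54 CPM in vehicle WT neurons, 21.2, 14.2 and 23.4 CPM in vehicle KO neurons and 32.5, 16.2 and 31.6 CPM in JQ1-treated KO neurons. Its log2 difference from vehicle WT with JQ1 was 1.67 (SE 0.27), its genotype difference 1.24 and its step in KO 0.43, which did not pass (adjusted p = 0.147 by edgeR's quasi-likelihood test).

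**Figure D1:**
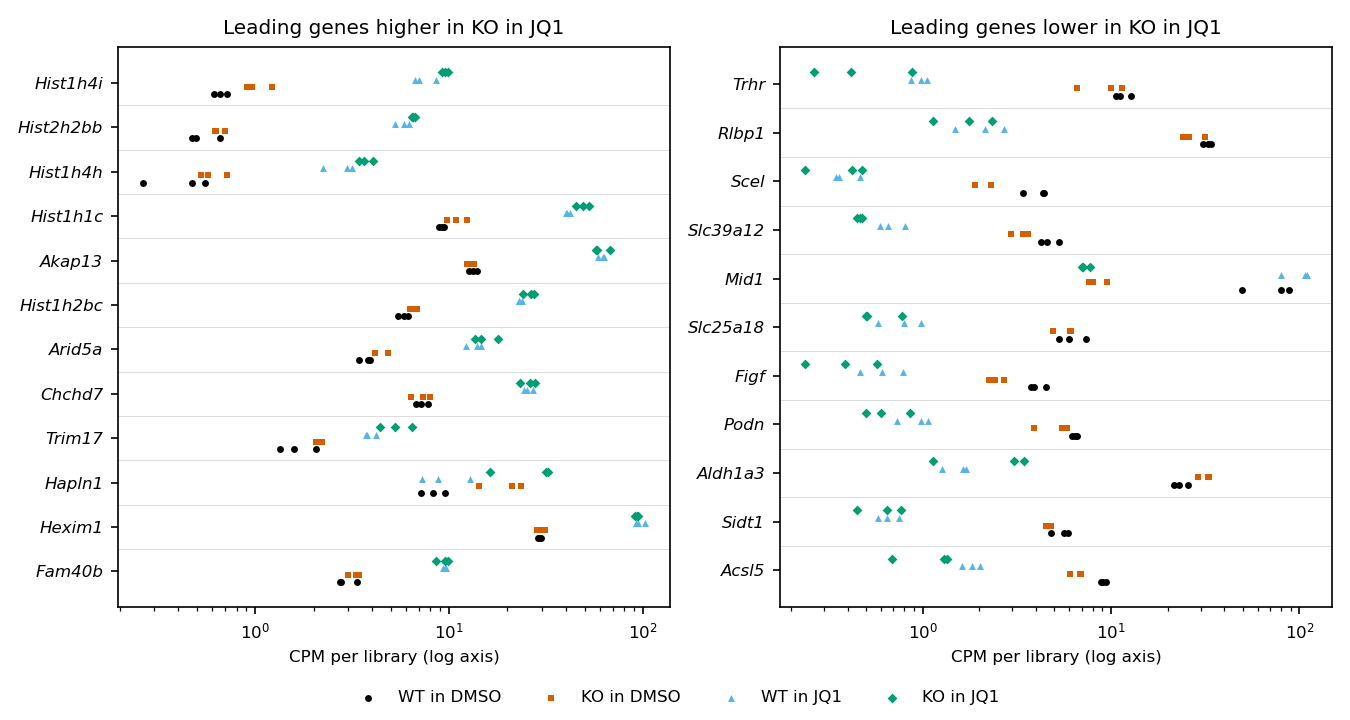
Each point is the CPM of a library (log axis) for the leading genes above and below vehicle WT in JQ1-treated KO neurons, with 3 libraries in each of 4 groups marked by colour and shape. For Hist1h4i the JQ1-treated KO libraries measure 9.24, 9.87 and 9.48 CPM and the vehicle WT libraries 0.615, 0.711 and 0.660 CPM, while at Mid1 and Hapln1 vehicle KO already lies with JQ1-treated KO.

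The leading lower genes held enzymes and binders of retinoids, a growth factor and membrane carriers. Trhr, the receptor of thyrotropin-releasing hormone, measured 10.7, 12.8 and 11.2 CPM in vehicle WT neurons, 6.63, 10.01 and 11.4 CPM in vehicle KO neurons and 0.264, 0.874 and 0.419 CPM in JQ1-treated KO neurons. The JQ1-treated KO libraries lay far below both vehicle groups, at a log2 difference of -4.28 from vehicle WT (SE 0.27, adjusted p = 2.4e-08 by edgeR's quasi-likelihood test). Rlbp1, which binds retinaldehyde, measured 30.7, 32.9 and 34 CPM against 1.13, 2.34 and 1.76 CPM, a log2 difference of -4.14. Aldh1a3, which makes retinoic acid, measured 23, 25.8 and 21.5 CPM in vehicle WT neurons, 29, 33 and 32.8 CPM in vehicle KO neurons and 1.13, 3.46 and 3.05 CPM in JQ1-treated KO neurons (log2 -3.14). Its vehicle KO libraries lay above the vehicle WT range, but that genotype difference of 0.43 did not pass (adjusted p = 0.105).

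Scel, the zinc transporter Slc39a12, Figf, which is the growth factor VEGF-D, and the acyl-CoA synthetase Acsl5 were already lower in vehicle KO neurons and fell further. Scel measured 3.4, 4.4 and 4.35 CPM in vehicle WT neurons, 1.91, 2.31 and 2.3 CPM in vehicle KO neurons and 0.237, 0.424 and 0.479 CPM in JQ1-treated KO neurons. The 3 groups did not overlap, and its log2 difference of -3.38 from vehicle WT held a genotype part of -0.90 and a step of -2.49. The differences of Slc39a12, Figf and Acsl5 from vehicle WT were -3.34, -3.22 and -3.00. In 10 fits that left out libraries, Acsl5 kept this position in 5, Slc39a12 in 8, Figf in 9 and Scel in 10, and otherwise did not count as a genotype gene in DMSO. The mitochondrial glutamate carrier Slc25a18 (-3.29), the matrix protein Podn (-3.21) and Sidt1 (-3.11) had no called genotype difference in DMSO. Mid1, a microtubule-associated ubiquitin ligase, was low in KO with or without JQ1. It measured 88.1, 79.5 and 49.8 CPM in vehicle WT neurons, 8.07, 7.69 and 9.57 CPM in vehicle KO neurons and 7.07, 6.98 and 7.72 CPM in JQ1-treated KO neurons. Its difference of -3.33 from vehicle WT was nearly all genotype (-3.10), with a step of -0.22 that did not pass (adjusted p = 0.364 by edgeR's quasi-likelihood test).

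To follow which genes JQ1 brought to the vehicle WT level, genes called between the genotypes in DMSO with a difference of at least 0.32 on the log2 scale, a ratio of 5 to 4, were placed by what came next. There were 830 of them (5.38%), 317 higher in KO (2.05%) and 513 lower (3.32%). A gene was said to move back when its step in KO was called and opposite to the genotype difference, and to move away when the step was called in the same direction. Genes that moved back had reached the WT level when the 95% interval of JQ1-treated KO over vehicle WT lay within 0.32 of it either way. The others were short when still called on their own side, past when called on the far side, and undecided otherwise. The vehicle KO libraries enter the genotype difference and the step with opposite signs, so their scatter alone can place genes among those that move back, and its part in the counts was not tested.

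Of genes above WT in vehicle KO neurons more moved back than away, and of genes below WT more moved away than back. Of the 317 higher genes 168 moved back (53%), 37 moved away (11.7%) and 112 did not move (35.3%). Of the 513 lower genes 112 moved back (21.8%), 199 moved away (38.8%) and 202 did not move (39.4%). Over all genes the step in KO fell for 29.4% and rose for 27.7%. Of the genes that moved back, 109 reached the WT level (48 from above and 61 from below), 6 from above and 6 from below fell short, 75 from above and 11 from below went past, and 39 and 34 were undecided. Over all 830 genes, 388 lay nearer to vehicle WT with JQ1 than without and 442 lay farther, and the number past 2-fold went from 61 to 218. Under spike-in scaling 4 genes were higher and 11990 lower between the genotypes by the same rule, and 0 reached the WT level.

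The number of genes that reached the WT level and the split of the lower genes depended on the fold minimum and on individual libraries. The 109 that reached it became 3 with a genotype minimum of 1.5-fold, 575 with no minimum and 193 with a band of 1.5-fold. With no fold minimum 494 of 1198 lower genes moved back and 296 moved away, and 393 of 1113 higher genes moved back and 279 moved away. Without vehicle KO library 1 the lower genes numbered 170, without vehicle KO library 2 they were 272, and without vehicle WT libraries 2 or 3 they were 318 or 246. Those that moved away then numbered 69, 100, 112 and 92. Lower genes that moved back numbered 41, 60 and 60 without vehicle KO libraries 1 or 2 or vehicle WT library 3, and 173 without both KO libraries numbered 3. The higher genes that moved back were 109 without vehicle WT library 1. Genes that reached the WT level numbered 72 without vehicle WT library 1 and 66 without vehicle KO library 1, and those that went past numbered 43 and 51 without vehicle WT libraries 1 or 2. Genes that fell short numbered 5 and 7 without JQ1-treated KO libraries 2 or 3, and 20 with the replicate number as a block. Genes that did not move numbered 203 without vehicle WT library 2 and 155 without vehicle KO library 1, and without the latter 29 were undecided.

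**Figure D2:**
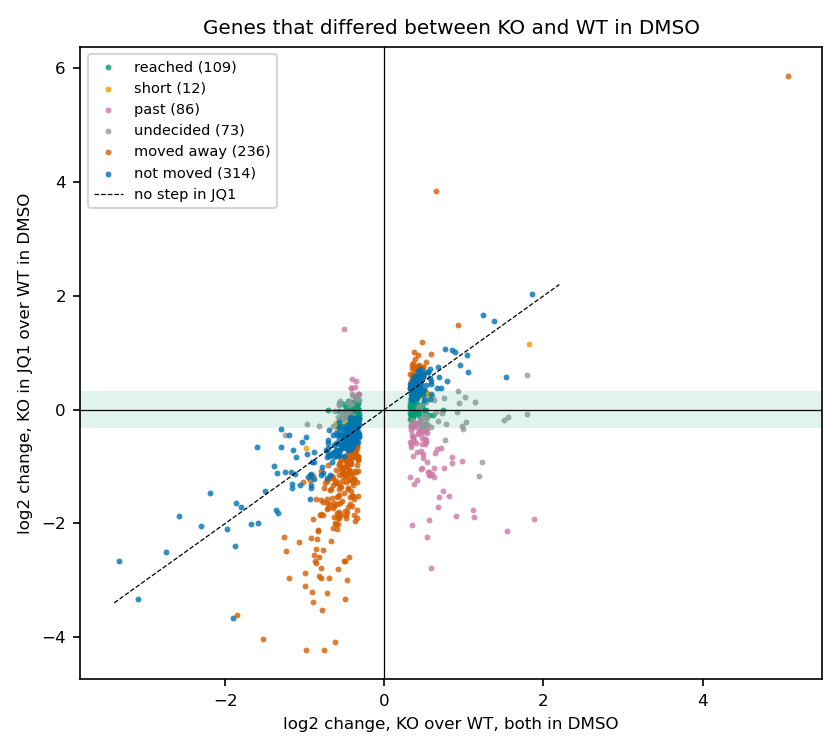
Each point is a gene called at 0.32 (log2) or more between the genotypes in DMSO, with its log2 difference in DMSO on the x axis and its log2 difference of JQ1-treated KO over vehicle WT on the y axis, coloured by position. The shaded band marks 0.32 (log2) either side of the WT level and holds the 109 genes that reached it, and the isolated point at the upper right is the pseudogene Gm13237, singled out after its values were seen, whose vehicle WT mean was 0.00917 CPM.

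**Figure D3:**
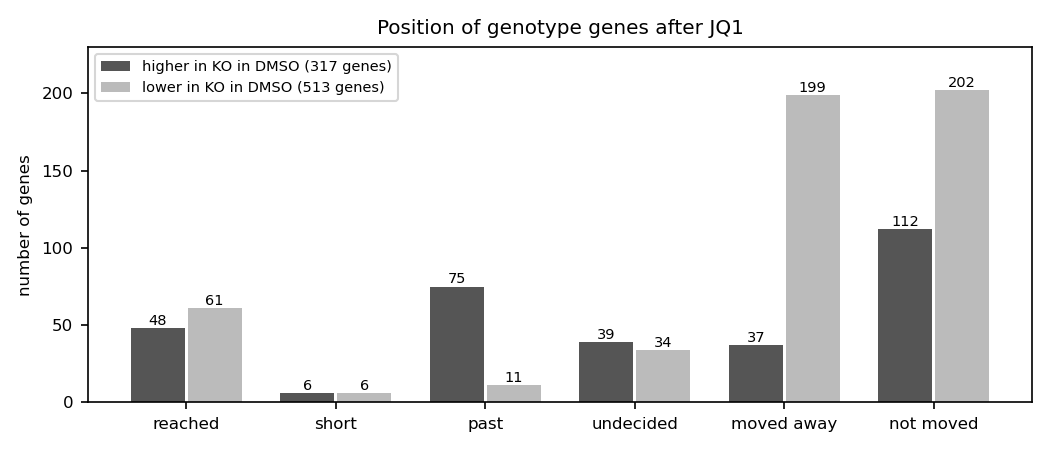
Bars count the 317 genes higher and the 513 genes lower in vehicle KO neurons by position after JQ1. Among higher genes the tallest bars are 112 not moved and 75 past, and among lower genes they are 202 not moved and 199 moved away.

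Genes that reached the WT level included structural, secreted and trophic proteins. Synpo, the actin-associated protein synaptopodin of the spine apparatus, measured 12.1, 11.8 and 12.7 CPM in vehicle WT neurons, 19.7, 20.9 and 20.5 CPM in vehicle KO neurons and 12.1, 12.7 and 11.4 CPM in JQ1-treated KO neurons. The JQ1-treated KO libraries overlapped those of vehicle WT, and the log2 difference was -0.01 with a 95% interval from -0.18 to 0.16. JQ1-treated WT neurons stood lower, at 8.9, 7.58 and 7.28 CPM, and JQ1-treated KO neurons remained above them by 0.61 (adjusted p = 0.0011 by edgeR's quasi-likelihood test). Itm2a, a membrane protein, came from below. It measured 10.3, 10.7 and 10.04 CPM in vehicle WT neurons, 6.23, 5.99 and 6.74 CPM in vehicle KO neurons and 8.68, 10.8 and 11.4 CPM in JQ1-treated KO neurons, a log2 difference of -0.01 from vehicle WT (interval -0.21 to 0.20). JQ1-treated WT neurons lay higher still, at 14.9, 14.6 and 16.4 CPM.

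Ntf3, which encodes neurotrophin-3, measured 8.5, 9.11 and 8.86 CPM in vehicle WT neurons, 13.2, 13.8 and 12.1 CPM in vehicle KO neurons and 7.26, 8.73 and 8.55 CPM in JQ1-treated KO neurons (log2 difference from vehicle WT -0.10, interval -0.31 to 0.10). It kept this position in 5 of 10 fits that left out libraries. The secreted protease Adamts17 (log2 -0.09), the scaffold protein Mpp7 (0.09), Synpo and Itm2a kept it in 10 of 10. The matrix protein Matn2 (-0.07) kept it in 6 and D16Ertd472e (-0.03) in 2. Kitl, the ligand of the receptor Kit, measured 142, 138 and 150.2 CPM in vehicle WT neurons, 99.6, 96.3 and 95.8 CPM in vehicle KO neurons and 140.4, 113 and 131 CPM in JQ1-treated KO neurons. It lay within the band and yet below WT by test, at -0.16 (adjusted p = 0.0416 by edgeR's quasi-likelihood test), and the call was lost without JQ1-treated KO library 2 (-0.08), JQ1-treated KO library 3 (-0.18), vehicle WT library 1 (-0.17), vehicle WT library 3 (-0.12), vehicle KO library 1 (-0.16), vehicle KO library 2 (-0.15) or vehicle KO library 3 (-0.16). It kept its position within the band in 5 of 10 fits. Of the 109 genes that reached the level, 7 from above and 4 from below were still called against vehicle WT.

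**Figure D4:**
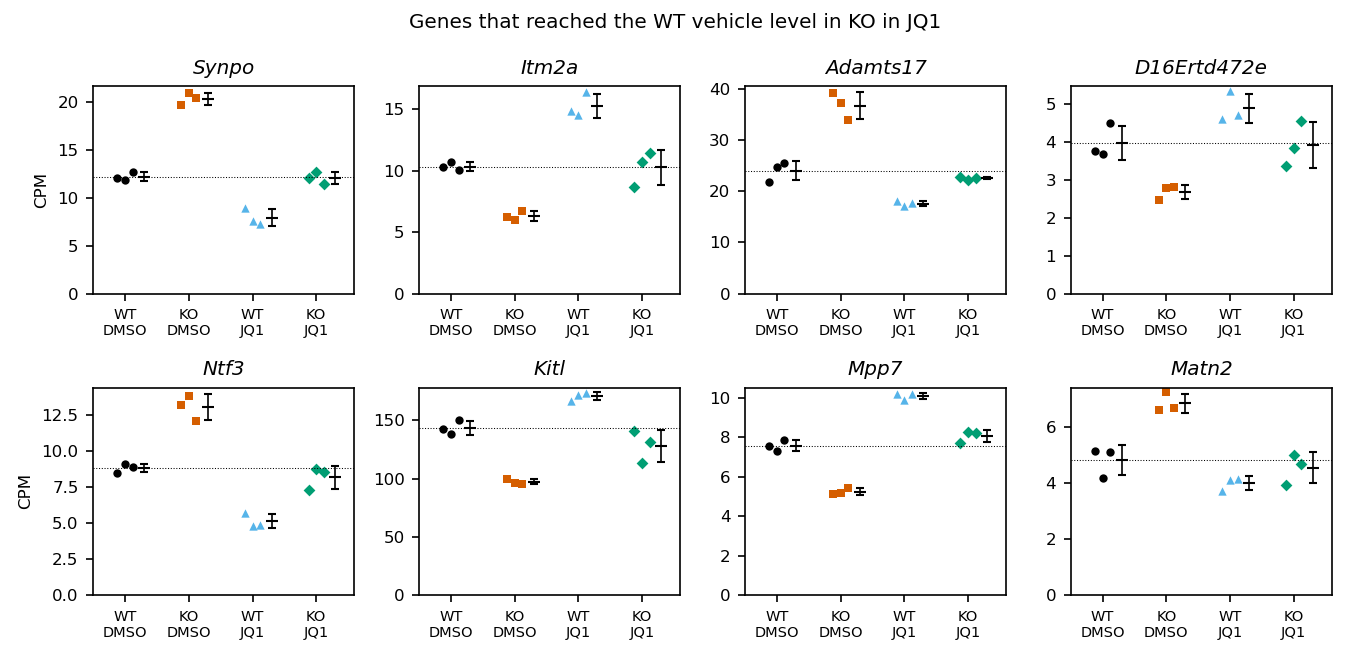
CPM per library for the 8 genes of largest genotype difference among those that reached the vehicle WT level, with the mean and SD of 3 libraries beside each group and the vehicle WT mean as a dotted line. Synpo, Adamts17, Ntf3 and Matn2 come down from above the line and Itm2a, D16Ertd472e, Kitl and Mpp7 come up from below it, and the JQ1-treated WT libraries lie on the far side of the line in each panel.

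The medians in each position put the WT response beside that of KO. For higher genes that reached the WT level the median was 0.36 between genotypes, -0.40 for the step in KO and -0.32 for JQ1 in WT. For lower genes that reached it the medians were -0.37, 0.36 and 0.24. Genes that went past from above had medians of 0.47, -1.16 and -1.09, and lower genes that moved away had -0.53, -0.79 and -0.90. In each of these 4 positions WT neurons had a median response of the same sign as KO neurons.

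Few genes stopped short of the WT level, and among them were markers of cortical neuron classes, an amino acid transporter and a channel. Vip, the vasoactive intestinal peptide of a class of inhibitory neurons, measured 0.908, 0.684 and 1.38 CPM in vehicle WT neurons, 3.38, 2.69 and 4.42 CPM in vehicle KO neurons and 1.85, 1.79 and 3.14 CPM in JQ1-treated KO neurons. Its JQ1-treated KO libraries still lay above every vehicle WT library, by 1.15 (SE 0.32, adjusted p = 0.00709 by edgeR's quasi-likelihood test). Tle4, a corepressor of deep-layer neurons, measured 64.8, 60.4 and 61.1 CPM against 31.6, 44.1 and 39.8 CPM, a log2 difference of -0.68 after a genotype difference of -0.98. The calcium release channel Itpr1 lay 0.29 above vehicle WT after 0.53 in DMSO, the methionine sulfoxide reductase Msra 0.28 after 0.53 and the amino acid transporter Slc7a8 0.34 after 0.51. Spike-in scaling turned these 3 to -0.44, -0.47 and -0.42. Vip, Tle4, Itpr1 and Slc7a8 kept this position in 6 of 10 fits that left out libraries, Cdr2 in 7, and Msra and Ephb1 in 10. The ephrin receptor Ephb1 stood at -0.34 after -0.59 in DMSO. The call of Cdr2 (-0.23) was lost without JQ1-treated KO library 2 (-0.19), vehicle WT library 1 (-0.20) or vehicle WT library 3 (-0.22), and that of Itpr1 without JQ1-treated KO library 2 (0.20).

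Genes that went past the WT level came mostly from above and ended below it. The receptor phosphatase Ptpru measured 39.3, 37.3 and 34.3 CPM in vehicle WT neurons, 63, 60.6 and 60.5 CPM in vehicle KO neurons and 12.2, 15.3 and 13.5 CPM in JQ1-treated KO neurons. The 3 groups did not overlap, and the log2 difference went from 0.73 before JQ1 to -1.42 with it (SE 0.08, adjusted p = 6.01e-09 by edgeR's quasi-likelihood test). Cck, the cholecystokinin peptide, measured 40.2, 41.9 and 40.5 CPM, then 63.5, 66.6 and 70.2 CPM, then 19.9, 28.7 and 27.7 CPM in the same order of groups, ending at -0.68. The kainate receptor subunit Grik4 ended at -0.76 after 0.63, the growth factor binding protein Igfbp4 at -1.13 after 0.59, the matrix protein Dpt at -1.52 after 0.81 and Lor at -1.02 after 0.75. The scavenger receptor Marco (-1.77) and the muscle protein Neb (-0.83) kept this position in 6 and 6 of 10 fits that left out libraries. Neb measured 3.28, 2.82 and 5.56 CPM in vehicle WT neurons, and its call was lost without vehicle WT library 3 (-0.47).

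The genes that moved away held several developmental regulators and the activity-regulated factor Egr1. Sox5, a transcription factor of deep-layer projection neurons, measured 67.8, 66 and 62.2 CPM in vehicle WT neurons, 30.9, 35.4 and 29.9 CPM in vehicle KO neurons and 26.6, 28.6 and 25.9 CPM in JQ1-treated KO neurons. Its log2 difference from vehicle WT was -1.27 (SE 0.08), with a small step of -0.24 (adjusted p = 0.015 by edgeR's quasi-likelihood test) on a genotype difference of -1.02. Egr1 measured 9.2, 8.69 and 11.3 CPM, then 17.4, 15.3 and 22.6 CPM, then 24, 27.3 and 30.7 CPM, and was the 1 gene of the 8 named by genotype difference that moved up. Its difference of 1.49 from vehicle WT (SE 0.14) held 0.92 from genotype and 0.57 from the step. Cyp26b1, which degrades retinoic acid, stood at -2.28 (genotype -0.85), the glycosyltransferase Mgat4c at -2.12 (-0.84) and the prostaglandin synthase Ptgds at -1.92 (-0.90). The cadherin Cdh7 (-1.24) and the kinesin Kif26a (-1.16) had smaller steps, of -0.30 and -0.26, and kept their position in 8 and 5 of 10 fits that left out libraries.

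Most of the genes that differed between the groups had no genotype call in DMSO. Such genes numbered 6126 when the difference from vehicle WT and the step in KO were both called in the same direction, with 2809 above vehicle WT and 3317 below. Past 2-fold these were 124 above and 1464 below.

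Lists of genes with a shared role were read against the share called over all genes, 27.4% higher and 30.9% lower, and against the median log2 difference of -0.02 over all genes. Their counts are descriptions, and counts under spike-in scaling are given as higher and lower in that order. In bulk RNA, fewer cells of a type and less RNA per cell cannot be told apart.

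Clustered histone genes lay above vehicle WT in most members tested. Of 66 listed, 27 were tested, and 24 of these were higher and 0 lower, with a median log2 difference of 2.25. The read filter took all groups together, so members low in vehicle could enter the test through JQ1 libraries alone. The count and the median therefore lean towards members that are high in JQ1, and the untested members are not described by them. Their summed level ran from 98.6 to 103 CPM in vehicle WT neurons and from 247 to 258 CPM in JQ1-treated KO neurons. The genotype median was 0.14 and that of the step 2.07. Spike-in scaling gave 18 and 0. Hist2h2ac, Hist2h2aa2 and Hist2h4, named because they were the 3 that did not pass, stood at 0.60, 0.63 and 0.79. These genes are near-identical copies within families, so reads could be split or dropped among them and values of individual members are uncertain.

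Genes of the BET proteins and of P-TEFb were mostly higher with Hexim1. The list gave 18 higher and 5 lower of 26, with a median of 0.27, a genotype median of 0.05 and a median step of 0.26, against 1 and 6 under spike-in scaling. Brd2 measured 434, 419.9 and 407 CPM in vehicle WT neurons and 668, 678 and 647 CPM in JQ1-treated KO neurons (log2 0.66, SE 0.04). The kinase Cdk9 measured 58, 58.7 and 58.1 CPM against 78.5, 78.4 and 71.9 CPM (log2 0.39). The groups did not overlap for either gene, and spike-in scaling turned Brd2 and Cdk9 to -0.09 and -0.36. Brd3 stood at 0.13 (adjusted p = 0.0207 by edgeR's quasi-likelihood test), and its call was lost without JQ1-treated KO library 2 (0.12) or vehicle WT library 3 (0.12). The 5 lower genes were Hexim2 (-1.26), Aff1 (-0.68), Brdt, Myc (-0.28) and Th1l. Hexim2, the paralog of Hexim1, measured 8.26, 7.84 and 8.36 CPM against 3.69, 2.93 and 3.74 CPM.

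Ribosomal protein genes were higher in most members by small amounts. The list gave 53 higher and 1 lower of 80, with a median of 0.22 and a median step of 0.16, whereas spike-in scaling gave 0 and 15. Rps2 measured 176, 175 and 171 CPM in vehicle WT neurons and 292, 283 and 282 CPM in JQ1-treated KO neurons (log2 0.71). Rpl12 stood at 0.66, Rpl18 at 0.57 and Rpl7a at 0.50. The lower gene was Rps27l at -0.39. Chromatin regulators gave 34 higher and 7 lower of 69 (median 0.17), against 0 and 26 under spike-in scaling. The deacetylase Hdac3 stood at 0.51 and the DNA methyltransferase Dnmt1 at 0.49, while the remodeller Chd3 measured 582, 573 and 618 CPM against 337, 344 and 285 CPM (log2 -0.87) and the acetyltransferase Kat2b stood at -0.84.

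Transcripts known to be bound by FMRP had about the same median difference from vehicle WT with JQ1 as without. The list gave 31 higher and 6 lower of 71, with a median of 0.20 beside a genotype median of 0.19, against 0 and 15 under spike-in scaling. Tsc2, which restrains mTOR, measured 83.6, 80.9 and 82.7 CPM in vehicle WT neurons, 95.6, 95.3 and 103 CPM in vehicle KO neurons and 141, 133 and 131 CPM in JQ1-treated KO neurons. Its 3 groups did not overlap (log2 0.71 from vehicle WT, SE 0.05), and its step of 0.46 passed (adjusted p = 1.41e-06 by edgeR's quasi-likelihood test). App, the amyloid precursor, stood at 0.62. Camk2a, the kinase of the postsynaptic density, stood at 0.25 after 0.36 in DMSO. The scaffold gene Dlg4, at 0.08, did not pass (adjusted p = 0.153), and passed without JQ1-treated KO library 3 (0.13). Of the 8 list members with a genotype difference past 0.32, 1 moved back, 1 moved away and 6 did not move.

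Synaptic genes went both ways within each list. Presynaptic release genes gave 20 higher and 14 lower of 43 (median 0.14), against 0 and 19 under spike-in scaling. The vesicle protein Vamp2 measured 679, 691 and 597 CPM in vehicle WT neurons and 982, 1009 and 1026 CPM in JQ1-treated KO neurons (log2 0.62), and the fusion ATPase Nsf stood at 0.66. Complexin 2, Cplx2, measured 588, 590.2 and 590.0 CPM against 261, 348 and 324 CPM (log2 -0.92), the calcium sensor Doc2a stood at -1.18, and the vesicular glutamate transporter Slc17a7 at -0.70. Postsynaptic glutamate genes gave 11 higher and 20 lower of 45 (median -0.02), against 0 and 27 under spike-in scaling. The NMDA receptor subunit Grin3a measured 68, 64.9 and 73.2 CPM in vehicle WT neurons, 46.1, 56 and 46.7 CPM in vehicle KO neurons and 19.8, 20.8 and 18.2 CPM in JQ1-treated KO neurons (log2 -1.81). The obligatory subunit Grin1 lay higher, from 95.9, 94.8 and 95.6 CPM in vehicle WT neurons to 166, 154 and 139 CPM (log2 0.68). The AMPA receptor subunit Gria3 stood at -1.09 and Gria1 at -0.17, after 0.33 in DMSO, and the call of Gria1 was lost without vehicle WT library 3 (-0.13).

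Genes of the GABA synapse gave 8 higher and 7 lower of 20 (median -0.02), against 0 and 10 under spike-in scaling. The metabotropic receptor Gabbr1 (0.58) and the adhesion protein Nlgn2 (0.58) were higher, and the receptor subunit Gabra5 (-0.41) was lower. Voltage-gated channel genes gave 8 higher and 8 lower of 40, and 13 higher without JQ1-treated KO library 3. Under spike-in scaling they gave 0 and 22. The potassium channel Kcna6 measured 49, 43.9 and 49.2 CPM in vehicle WT neurons and 32.8, 32.5 and 35.1 CPM in JQ1-treated KO neurons, groups that did not overlap (log2 -0.50), and the sodium channel Scn3a stood at -0.45. Of the higher members, Kcnj4 stood at 0.46 after 0.36 in DMSO.

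Activity-regulated genes went both ways. The list gave 13 higher and 8 lower of 34 (median 0.18), against 2 and 13 under spike-in scaling. Beside Egr1, Ier2 measured 7.59, 7.03 and 7.59 CPM in vehicle WT neurons and 22.1, 19.9 and 18.8 CPM in JQ1-treated KO neurons (log2 1.45), and Fos 3.05, 3.47 and 2.89 CPM against 5.54, 4.28 and 5.5 CPM (log2 0.68). Arc, a synaptic regulator, measured 1.93, 1.71 and 2.04 CPM against 0.818, 1.05 and 1.05 CPM (log2 -0.95), and Fosl2 stood at -1.27. The orphan receptor gene Nr4a2 stood at -0.75 after -0.89 in DMSO. Nr4a1 stood at -0.34 after 0.46, and its call was lost without JQ1-treated KO library 2 (-0.33), JQ1-treated KO library 3 (-0.29) or vehicle WT library 2 (-0.25). Npas4 stood at 0.63 (adjusted p = 0.0436 by edgeR's quasi-likelihood test) and lost its call without JQ1-treated KO library 1 (0.34), vehicle WT library 2 (0.55) or vehicle WT library 3 (0.58). Bdnf stood at 0.41 (adjusted p = 0.0555), and passed without JQ1-treated KO library 2 (0.56), JQ1-treated KO library 3 (0.49) or vehicle WT library 1 (0.50).

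Markers of neuron classes differed in direction. Deep-layer markers gave 1 higher and 15 lower of 18, against 0 and 17 under spike-in scaling, with a median of -0.78 beside a genotype median of -0.49 and a median step of -0.31. Their summed level was 1095 to 1126 CPM in vehicle WT neurons, 828 to 897 CPM in vehicle KO neurons and 657 to 749 CPM in JQ1-treated KO neurons. The transcription factor Fezf2 measured 53.7, 52.2 and 50.5 CPM in vehicle WT neurons, 24.6, 31.6 and 26.9 CPM in vehicle KO neurons and 24.7, 32.5 and 24.8 CPM in JQ1-treated KO neurons. It stood at -0.92 with a step of -0.01, and Bcl11b at -0.58. Tbr1 moved back in part, to -0.25 after -0.44 in DMSO, while Lmo3 (-1.19) and Syt6 (-1.85) moved away, in 10 and 6 of 10 fits that left out libraries. The higher gene, Crim1, stood at 0.19 and lost its call without JQ1-treated KO library 2 (0.16) or vehicle WT library 1 (0.13), and turned to -0.54 under spike-in scaling.

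Upper-layer markers gave 7 higher and 5 lower of 18, against 0 and 11 under spike-in scaling, with a median of -0.10 beside a genotype median of 0.18 and a median step of -0.09. The transcription factor Lhx2 measured 147, 164 and 153 CPM in vehicle WT neurons and 273, 269 and 253 CPM in JQ1-treated KO neurons (log2 0.78). The potassium channel Kcnk2 measured 39.4, 42.6 and 40.8 CPM against 35.2, 31.3 and 32.4 CPM (log2 -0.31). Inhibitory neuron markers gave 13 higher and 3 lower of 25 with a median of 0.32 beside a genotype median of 0.31 and a median step of 0.04. Under spike-in scaling they gave 0 and 7. Gad1, which makes GABA, measured 176, 159 and 200.5 CPM in vehicle WT neurons, 258, 237 and 238 CPM in vehicle KO neurons and 272, 212 and 248 CPM in JQ1-treated KO neurons (log2 0.45). Gad2 stood at 0.47 and the homeobox genes Dlx5 and Dlx6 at 0.76 and 0.80, the call of Dlx6 being lost without vehicle WT library 2 (0.64). The 3 lower markers were Htr3a, Calb2 and Cck. Htr3a, a serotonin receptor channel, went from 0.67 in DMSO to -1.71, and Calb2, the calcium buffer calretinin, from 0.56 to -1.15. They kept their position past WT in 8 and 6 of 10 fits that left out libraries.

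Markers of other cell types were read against the 30.9% of all genes that were lower and the 58.4% that were called, and their part in the results above was not tested. Astrocyte markers gave 0 higher and 16 lower of 19 (median -0.83), against 0 and 19 under spike-in scaling, with a genotype median of -0.28 (0 higher and 2 lower) and a median step of -0.60. Their summed level was 2187 to 2648 CPM in vehicle WT neurons, 1615 to 2176 CPM in vehicle KO neurons and 1105 to 1722 CPM in JQ1-treated KO neurons, so that vehicle KO already lay below the vehicle WT range. The water channel Aqp4 measured 19.6, 24 and 26.3 CPM against 2.8, 5.13 and 4.46 CPM (log2 -2.46), and Mlc1 stood at -1.86. Gfap, the astrocyte filament, measured 10.5, 12.9 and 14.3 CPM against 8.18, 14.2 and 11.3 CPM, groups that overlapped (log2 -0.15, adjusted p = 0.544 by edgeR's quasi-likelihood test). Oligodendrocyte markers gave 1 higher and 4 lower of 13 (0 and 9 under spike-in scaling), with Mbp at -2.20 and their sum at 162 to 227 CPM against 161 to 217 CPM. That lower count is near the share over all genes, and 38.5% of the list was called in all. The higher one, Olig1 (0.33), lost its call without JQ1-treated KO library 2 (0.20), JQ1-treated KO library 3 (0.30) or vehicle WT library 2 (0.24). Microglia markers gave 0 higher and 6 lower of 13 (0 and 10), with sums of 25.6 to 28.5 CPM against 20.8 to 24.8 CPM. Vascular and fibroblast markers gave 2 higher and 8 lower of 16 (2 and 9), with sums of 89.2 to 112 CPM against 40.2 to 45.2 CPM. Progenitor and cell cycle genes gave 1 higher and 16 lower of 31 (0 and 27), with a median of -0.32 beside a genotype median of -0.33. Their lower count was 9 without JQ1-treated KO library 1 and 9 without vehicle WT library 3. The intermediate filament Vim stood at -0.75 and the replication clamp Pcna at 0.33.

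**Figure D5:**
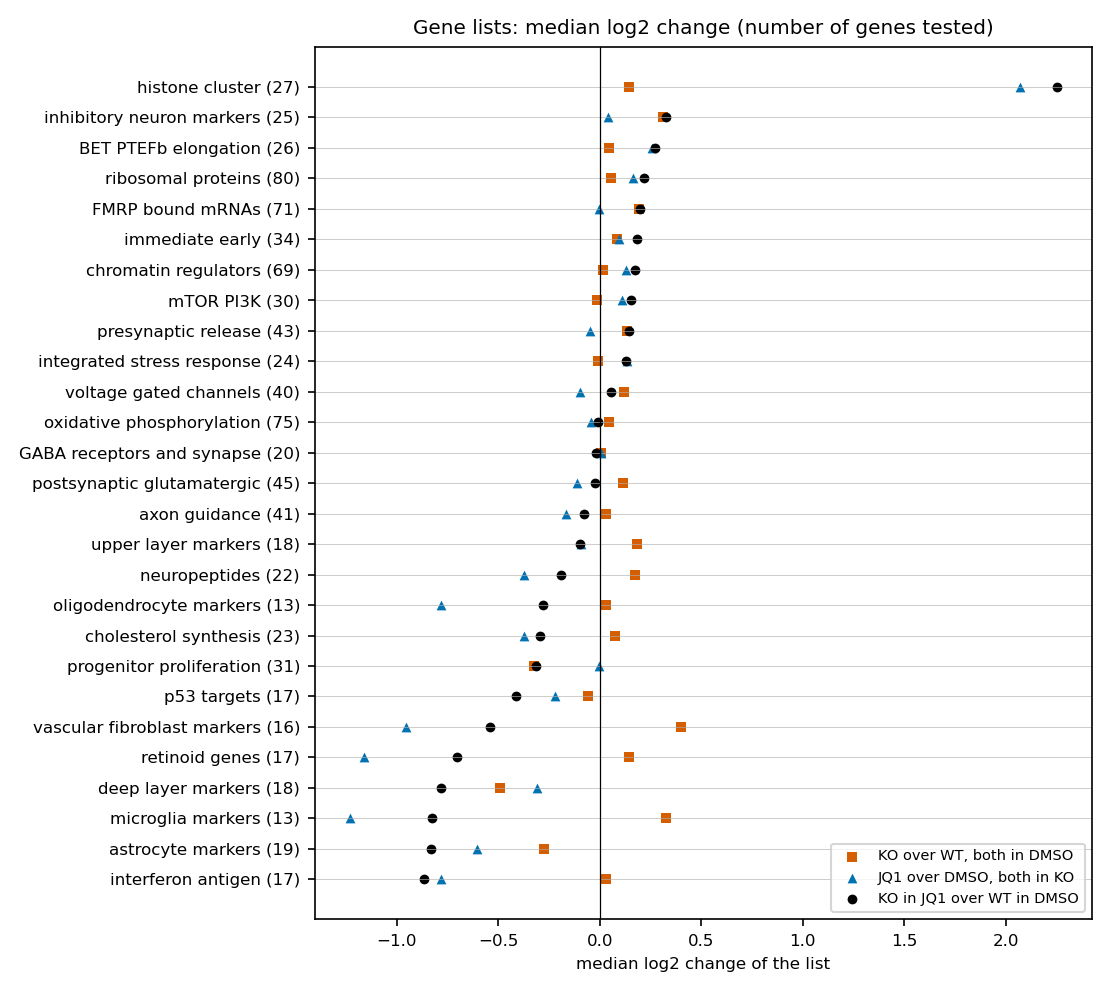
For each list, with the number of genes tested, points give the median log2 difference between genotypes in DMSO (squares), of the step in KO (triangles) and of JQ1-treated KO over vehicle WT (circles). The histone cluster stands at 2.25, deep-layer markers at -0.78 lie to the left of both of their parts, and the circle of the FMRP-bound list lies on its genotype square at 0.20 and 0.19.

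Several metabolic and defence lists held more lower than higher genes. Genes of cholesterol synthesis gave 0 higher and 15 lower of 23, against 0 and 22 under spike-in scaling, with a median of -0.29 beside a genotype median of 0.08 and a median step of -0.37. Insig1, a regulator of sterol sensing, measured 212, 214 and 200.4 CPM in vehicle WT neurons and 139, 142 and 139 CPM in JQ1-treated KO neurons (log2 -0.58), Stard4 stood at -0.65 and the synthase Fdps at -0.55 after 0.20 in DMSO. Retinoid genes gave 1 higher and 11 lower of 17 (median -0.70, spike-in 0 and 15), and Rlbp1, Aldh1a3 and Cyp26b1, given above, were among them. Interferon and antigen genes gave 2 higher and 11 lower of 17 (median -0.87, spike-in 0 and 12), with Ifit2 at 5.77, 6.42 and 6.82 CPM against 1.48, 2.42 and 2.24 CPM (log2 -1.60). The summed level of this list went the other way, from 158.3 to 162.5 CPM in vehicle WT neurons. It was 168.7 to 175.2 CPM in vehicle KO neurons and 171.3 to 175.2 CPM in JQ1-treated KO neurons. Targets of p53 gave 2 higher and 10 lower of 17 (median -0.41, spike-in 0 and 15), with Perp at -2.17 and the cell cycle inhibitor Cdkn1a at -0.82.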

How the data were processed

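RNA of cultured cortical neurons was sequenced as 75 bp single reads from TruSeq libraries, per the labels' protocols. The authors deposited raw gene counts, and TopHat2 2.1.0, SAMtools 0.1.19, HTSeq 0.6.1 and build mm9 are named in the submitters' processing notes. The setting for strand in the counting was not found in these sources, which leaves overlapping and antisense genes uncertain. The authors' own table of KO against WT and the 6 THZ1 samples were not used here.

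Counts of 12 libraries in 4 groups were fitted with edgeR 4.0.16 in R 4.3.3 (quasi-likelihood F test, no replicate block) after filterByExpr with a minimum count of 10 and TMM scaling. The 92 spike-in sequences were left out of library sizes. P-values were adjusted by the Benjamini-Hochberg method over 15433 genes. DESeq2 1.42.0 was an alternative, as were its size factors, spike-in scaling, no filter, an adjusted p of 0.01, other fold limits and bands, fewer libraries and a replicate block. Same-numbered libraries of vehicle and JQ1-treated KO deviated together (r 0.228, 0.287 and 0.212), and those of vehicle WT and JQ1-treated KO did not in every pair (0.13, -0.015 and -0.0076).

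The members and the 27 gene lists were chosen with earlier results of these data known. Named genes are Fmr1, the 12 largest called differences each way that reach a mean of 3 CPM in 1 of the groups and whose libraries do not overlap, the 8 of largest genotype difference per position, and up to 4 per list of smallest adjusted p. Brd3, Cdk9, Aff1, Myc, Gad1, Gad2, Dlx5, Dlx6, Calb2, Arc, Bdnf, Fos, Npas4, Nr4a1, Dlg4, Camk2a, Gria1, Slc17a7, Tbr1, Bcl11b, Fezf2, Crim1, Gfap, Olig1, Rps27l and Epha4 were added after their values were seen, and so was the motif TATAA. On simulated data for 15208 genes, 47.8%, 82.1% and 97% of genes changed 1.25-fold, 1.5-fold and 2-fold were recovered. Only 200 genes were changed there, all drawn from those with higher counts, so the rates do not cover genes of low counts. Some genes that the rule names are not reported here.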

Additional observations from a re-analysis of the deposited data

How the results depend on the processing

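The counts of called genes changed by at most 1.5 times under DESeq2, its size factors, no filter and the libraries compared alone. At an adjusted p of 0.01 they also stayed within 1.5 times, with 7057 called against 9007. The positions relative to WT depended more on the setting. Spike-in scaling moved the level of all genes: 41 were called higher and 8610 lower, 30 and 4801 past 2-fold, and 4 and 11990 between the genotypes. Of these 1 higher gene moved back and 0 moved away, 779 lower genes moved away, 11064 did not move, 0 reached, 0 were short, 10 past and 141 undecided. The following 39 named genes, which were above vehicle WT, turned below it with that scaling: Itpr1 -0.44, Msra -0.47, Slc7a8 -0.42, Tsc2 -0.038, App -0.12, Vamp2 -0.14, Nsf -0.080, Grin1 -0.073, Gabbr1 -0.17, Nlgn2 -0.17, Kcnj4 -0.30, Brd2 -0.092, Mepce -0.15, Hdac3 -0.24, Dnmt1 -0.25, Mdga1 -0.24, Pcna -0.40, Rps2 -0.038, Rpl7a -0.25, Rpl18 -0.18, Rpl12 -0.093, Atp5a1 -0.42, Shmt2 -0.20, Sesn2 -0.18, Hspa5 -0.39, Sdf2l1 -0.027, Efna3 -0.33, Chga -0.16, Cdk9 -0.36, Fos -0.056, Crim1 -0.54, Camk2a -0.50, Epha4 -0.078, Gad2 -0.27, Brd3 -0.62, Snap25 -0.60, Npas4 -0.14, Olig1 -0.40 and Gad1 -0.29. At an adjusted p of 0.01 there were 174 higher and 189 lower genotype genes, 74 and 46 moved back, 16 and 56 moved away, 171 did not move, 66 reached, 3 were short, 30 past and 21 undecided. With a genotype minimum of 1.5-fold the same counts were 66 and 158, 46 and 9, 4 and 79, 86, 3, 4, 20 and 28. With no minimum there were 1113 and 1198, 393 and 494 moved back, 279 higher moved away, 849 did not move, 575 reached and 221 went past. A band of 1.5-fold gave 193 reached, 2 short and 22 undecided. With the JQ1-treated WT libraries left out of the fit 69 lower genes moved back, and without both KO libraries numbered 3 it was 173, with 536 not moved. The replicate block, which the numbers support for vehicle against JQ1-treated KO only, gave 9206 called genes and 20 short, and moved no other of these counts by over 1.5 times. Leaving out in turn each of the 9 libraries of vehicle WT, vehicle KO and JQ1-treated KO, and not those of JQ1-treated WT, gave 8195 to 9110 called genes, 3824 to 4391 higher and 4301 to 4719 lower, with 156 to 187 and 1713 to 1850 past 2-fold. Genotype genes numbered 224 to 459 higher and 170 to 618 lower, of which 109 to 234 and 41 to 158 moved back, 29 to 46 and 69 to 214 moved away and 155 to 437 did not move. There were 66 to 163 reached, 5 to 16 short, 43 to 115 past and 29 to 104 undecided. The cause of these shifts was not tested. With 3 libraries a group, small differences are limited by the spread between libraries, and genes near 1 CPM by their counts.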

Other observations

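The remaining lists held genes in both directions. Genes of oxidative phosphorylation gave 14 higher and 13 lower of 75 (median -0.01), against 0 and 53 under spike-in scaling, and 7 and 6 higher without JQ1-treated KO library 1 or vehicle WT library 1. The ATP synthase subunit gene Atp5e measured 72.3, 83.5 and 82 CPM in vehicle WT neurons and 46.2, 43.6 and 42.8 CPM in JQ1-treated KO neurons, groups that did not overlap (log2 -0.84, SE 0.07). Atp5a1, another subunit of the same enzyme, stood at 0.33. Genes of the integrated stress response gave 12 higher and 5 lower of 24 (median 0.13), against 0 and 11 under spike-in scaling. The lower count was 3 without JQ1-treated KO library 1, JQ1-treated KO library 2 or vehicle WT library 1. The chaperone Hspa5 stood at 0.36 and the stress sensor Sesn2 at 0.56.

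Axon guidance genes gave 5 higher and 16 lower of 41 (median -0.08), against 0 and 30 under spike-in scaling. The secreted guidance cue Sema3d measured 4.51, 3.61 and 4.04 CPM in vehicle WT neurons and 0.844, 0.848 and 0.568 CPM in JQ1-treated KO neurons (log2 -2.38, SE 0.16), while the receptor Epha4 stood at 0.66, most of it present in DMSO (0.55). Neuropeptide genes gave 6 higher and 9 lower of 22 (median -0.19), against 0 and 13 under spike-in scaling. Nts, which encodes neurotensin, stood at -1.60, and Tac2, a tachykinin gene, measured 0.820, 0.737 and 0.715 CPM in vehicle WT neurons, 1.8, 1.78 and 2.34 CPM in vehicle KO neurons and 2.01, 2.33 and 2.36 CPM in JQ1-treated KO neurons (log2 1.56). Genes of the PI3K and mTOR pathway gave 14 higher and 6 lower of 30 (median 0.15), against 0 and 13 under spike-in scaling. Deptor, an inhibitor of mTOR, went from 0.57 in DMSO to -1.15, and the kinase subunit Pik3cb stood at 0.80.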
